A study of Mus musculus with 12 samples.

Results

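Toll-like receptors are the innate immune receptors through which macrophages recognise conserved molecules of microbes and some nucleic acids. The 10 genes described here, Tlr1, Tlr2, Tlr3, Tlr4, Tlr5, Tlr6, Tlr7, Tlr8, Tlr9 and Tlr13, were taken from a table of RNA-seq counts by mouse symbol and Ensembl identifier, and are 10 of its 32688 genes. The cells were RAW264.7, a mouse macrophage line. They were either Null cells, which carry TFEB and TFE3, or cells in which both of these transcription factors had been knocked out by CRISPR (DKO). Both were sequenced without drug (control) and following exposure for 8 h to etoposide, a topoisomerase II poison that causes DNA breaks, at 100 µM, with 3 libraries in each of the 4 groups (Null control, DKO control, Null etoposide and DKO etoposide). Control cells are untreated per the labels and DMSO-treated per the methods. Each genotype is 1 line. The study calls its etoposide-treated samples independent, without saying whether separate cultures are meant, so p-values measure the spread between these libraries, and a difference between genotypes cannot be told apart from one between the lines.

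The receptors fall into 2 classes by where they act. TLR1, TLR2, TLR4, TLR5 and TLR6 sit at the cell surface: TLR2 pairs with TLR1 or TLR6 to bind bacterial lipopeptides, TLR4 with its partner MD-2 binds lipopolysaccharide, and TLR5 binds flagellin. TLR3, TLR7, TLR8, TLR9 and TLR13 act in endosomes and lysosomes, where TLR3 recognises double-stranded RNA, TLR7 and TLR8 single-stranded RNA, TLR9 DNA with unmethylated CpG and TLR13 bacterial ribosomal RNA. All except TLR3 signal through the adaptor MyD88, whereas TLR3 signals through TRIF, and TLR4 uses both.

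By GENCODE coordinates (GRCm38), all 10 are protein coding. Tlr1 (chr5:64924679-64933563) and Tlr6 (chr5:64952031-64960097) are neighbours on the minus strand, 18467 bases apart, and Tlr8 (chrX:167242696-167264329) and Tlr7 (chrX:167304929-167330558) are neighbours on the minus strand, 40599 bases apart. Tlr13 (chrX:106143204-106160493, plus strand) lies elsewhere on that chromosome. The others are Tlr2 (chr3:83836272-83841767, minus), Tlr3 (chr8:45395665-45411080, minus), Tlr4 (chr4:66827584-66930284, plus), Tlr5 (chr1:182954788-182976044, plus) and Tlr9 (chr9:106222598-106226883, plus). Tlr1 and Tlr6 are alike in sequence: 9.25% of the 75-base runs in Tlr6 transcripts also occur in Tlr1 transcripts, and 10.6% of those in Tlr1 transcripts occur in Tlr6 or in other genes, and since uniquely mapped reads were kept, counts of these genes are uncertain there. Tlr3 shares exon bases with Gm45542 on the opposite strand, which could supply up to 3.94% of its counts, and no exon of the other 9 overlaps another gene.

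Tlr3, Tlr8, Tlr9 and Tlr13 were the nucleic acid receptors called in the etoposide response of DKO cells, and the bases before the starts of the latter 3 are shown, since the listed window of Tlr3 lies inside an annotated transcript. They are RefSeq promoter sequences of GRCm38.p6 from up to 250 bases upstream, on the strand of the gene, and stop before the earliest annotated transcript. Capitals mark matches, on either strand, to GAGGAA, a core recognised by the macrophage factor PU.1, or to TGANTCA, recognised by AP-1 factors.
Tlr8, chrX:167264330-167264579, minus strand: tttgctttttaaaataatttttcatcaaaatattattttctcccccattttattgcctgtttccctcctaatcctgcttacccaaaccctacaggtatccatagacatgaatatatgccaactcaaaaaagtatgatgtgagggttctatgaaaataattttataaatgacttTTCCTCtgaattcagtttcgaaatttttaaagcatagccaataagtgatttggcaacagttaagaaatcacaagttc
Tlr9, chr9:106222348-106222597, plus strand: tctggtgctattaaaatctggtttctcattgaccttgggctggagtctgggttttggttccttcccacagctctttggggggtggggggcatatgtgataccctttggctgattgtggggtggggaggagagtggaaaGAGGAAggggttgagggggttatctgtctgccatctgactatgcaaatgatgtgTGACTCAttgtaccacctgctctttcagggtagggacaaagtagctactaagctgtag
Tlr13, chrX:106143025-106143203, plus strand: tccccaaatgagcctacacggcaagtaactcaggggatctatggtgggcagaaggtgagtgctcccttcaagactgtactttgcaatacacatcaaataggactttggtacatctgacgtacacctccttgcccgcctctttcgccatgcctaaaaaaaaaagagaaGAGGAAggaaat
GAGGAA begins 77 bases before the RefSeq start of Tlr8 (in reverse, as TTCCTC), 112 bases before that of Tlr9 and 83 bases before that of Tlr13. It is a common string, found in 23.3% of the 32851 windows of 250 bases upstream of RefSeq starts. TGANTCA was found before Tlr9 alone among the 3, and in 6.7% of all windows. The string CACGTG, the core to which TFEB and TFE3 are known to bind, was in 6.0% of all windows and in none of these 3. Of the 10 windows listed for 8 of the receptors (Tlr4 and Tlr7 had none), 1 held CACGTG, 195 bases before an alternative start of Tlr1. Outside the 3 windows shown, GAGGAA was found only 23 bases before the other start of Tlr1. It was in no window of Tlr2, Tlr3, Tlr5 or Tlr6. These matches are descriptions of letters and not of sites.

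Total counts ran from 29837255 to 61809316 per library. Tfe3 lay between 89.4 and 119 CPM (counts scaled to library sizes corrected by the trimmed mean of M values) in the 6 Null libraries and between 31.5 and 42.5 CPM in the 6 DKO libraries, and Tfeb at 7.10 to 17.2 CPM against 3.14 to 5.25 CPM, so the counts of both targeted genes were lower in every DKO library than in any Null library. Because the word MEFs stands in the titles given to the DKO etoposide libraries, 8 macrophage and 8 fibroblast markers were examined. The summed macrophage markers came to 4585 to 4775 CPM there and to 4193 to 5132 CPM in the other groups, and the summed fibroblast markers to 1.02 to 1.20 CPM against 0.153 to 2.04 CPM, with Lum, Col3a1 and Thy1 at 0 counts in at least 10 of the 12 libraries and Pdgfrb the only one detected in all 12. The lowest macrophage marker was Fcgr1 in each group, down to 4.72 CPM in DKO etoposide libraries against 28.4 CPM or more elsewhere. Libraries of a group also lay apart from each other along 1 axis, the first principal component of deviations from group means, on which Null control 3, DKO control 1 and DKO etoposide 2 scored 30.9, 44.1 and 20.7 and Null control 1, DKO control 3 and DKO etoposide 3 scored -36.5, -29.9 and -21.2, whereas the 3 Null etoposide libraries lay between -2.5 and 3.2. Because RNA came from bulk cultures, fewer cells of a type and less RNA per cell cannot be told apart in any result.

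In these macrophages, transcripts of Tlr2 and Tlr7 made up most of the family. To compare levels between genes, counts were divided by exon length, and the resulting RPKM (CPM per kilobase of exon) put Tlr2 highest in every group, at 77.5 ± 1.95 in Null control and 73.4 ± 1.496 in Null etoposide cells, and at 62.5 ± 1.38 and 51.8 ± 0.520 in DKO cells without and with the drug (SD, n = 3). Tlr7 came next in every group, at 48.6 ± 3.94, 25.4 ± 1.52, 32.4 ± 6.71 and 28.9 ± 3.31 RPKM in the same order (SD, n = 3). Together they gave 80.2% to 84.0% of the summed RPKM of the 10 receptors as group means.

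Below them the order changed with the group. In Null control cells Tlr13 was the third, at 8.05 to 9.55 RPKM, above Tlr4 and Tlr9, whose ranges of 3.62 to 7.72 and 4.42 to 6.81 RPKM overlapped. In DKO etoposide cells Tlr13 had dropped to the seventh place, at 0.840 to 1.11 RPKM, where its range overlapped that of Tlr3, and Tlr9 was the third, at 6.54 to 9.17 RPKM. In DKO control cells the range of Tlr9, 2.81 to 4.46 RPKM, overlapped that of Tlr4 above it (3.71 to 7.34 RPKM) and that of Tlr13 below it (3.29 to 3.65 RPKM).

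Tlr1 and Tlr6 were neighbours in the order of DKO control, DKO etoposide and Null control cells with overlapping ranges, and in Null etoposide cells Tlr13 stood between them. Tlr3 and Tlr8 were low in every group, at most 0.938 and 0.597 RPKM. Tlr8 was above Tlr3 in Null control cells (0.307 to 0.377 against 0.214 to 0.299 RPKM) and below it in DKO control cells (0.0157 to 0.0451 against 0.387 to 0.517 RPKM), and their ranges overlapped in Null etoposide cells. The summed RPKM of the family was 154 ± 2.53 in Null control and 123 ± 2.82 in Null etoposide cells, and 113 ± 5.91 and 101 ± 4.58 in the DKO counterparts (SD, n = 3), and no group's range met another's. The endosomal receptors gave 41.1% ± 2.85 of that sum in Null control and 30.3% ± 0.834 in Null etoposide cells, and 35.4% ± 4.92 and 38.8% ± 2.96 in the DKO counterparts (SD, n = 3).

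**Figure D1:**
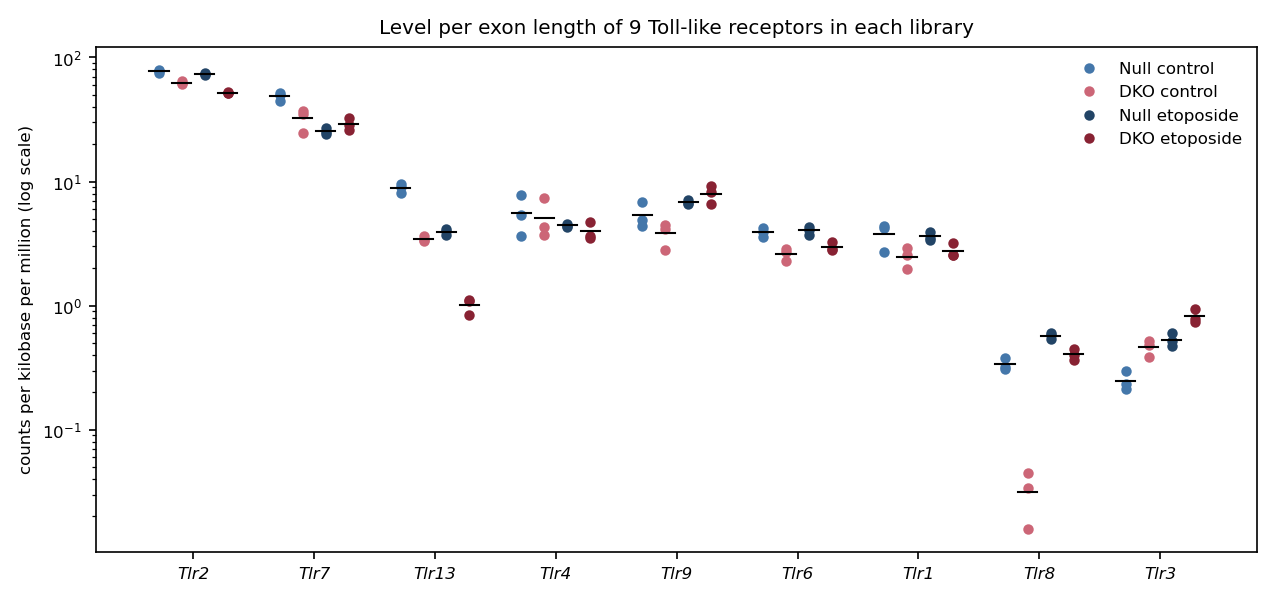
Level of 9 Toll-like receptors in each of the 12 libraries, as CPM per kilobase of exon (RPKM) on a log axis, ordered by the mean in Null control cells, with a black line at each group mean (Tlr5 is left out because it was at 0 in 5 libraries). Tlr2 and Tlr7 stand above the others in every group, Tlr13 falls from 8.90 RPKM in Null control to 1.01 RPKM in DKO etoposide cells, and Tlr8 in DKO control cells lies far below its level in the other groups.

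Of the 10 receptors, 9 passed the filter on low counts and were tested with all 18066 genes that passed it (limma-trend, Benjamini-Hochberg adjustment, called at an adjusted p under 0.05). With etoposide in Null cells Tlr3 and Tlr8 rose and Tlr7 and Tlr13 fell. These 2 rises and 2 falls among 9 receptors (22.2% each) are near the 20.9% of all genes tested that rose and the 18.7% that fell. In DKO cells Tlr3, Tlr8 and Tlr9 rose and Tlr2 and Tlr13 fell, against a background of 20.2% of genes that rose and 19.1% that fell. Between genotypes, control DKO cells had more Tlr3 and less Tlr1, Tlr2, Tlr6, Tlr7, Tlr8 and Tlr13 than control Null cells, which is 1 receptor higher and 6 lower where 10.9% of all genes were called higher and 8.39% lower. After etoposide, Tlr3 was higher and Tlr2, Tlr6 and Tlr13 were lower in DKO cells, where 15.9% of genes were called higher and 17.8% lower. The response to etoposide differed between the genotypes for 3 receptors, with Tlr7 and Tlr8 more positive and Tlr13 more negative in DKO cells, against 3.07% of genes more positive and 6.39% more negative. Tlr4 was called in none of the 5 contrasts. The median log2 difference of the 9 receptors was -0.03 and 0.17 for the etoposide responses of Null and DKO cells, -0.58 and -0.39 for DKO against Null in control and etoposide-treated cells and 0.13 for the interaction, where that of all genes was 0.03, 0.03, 0.00, -0.01 and -0.01.

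**Figure D2:**
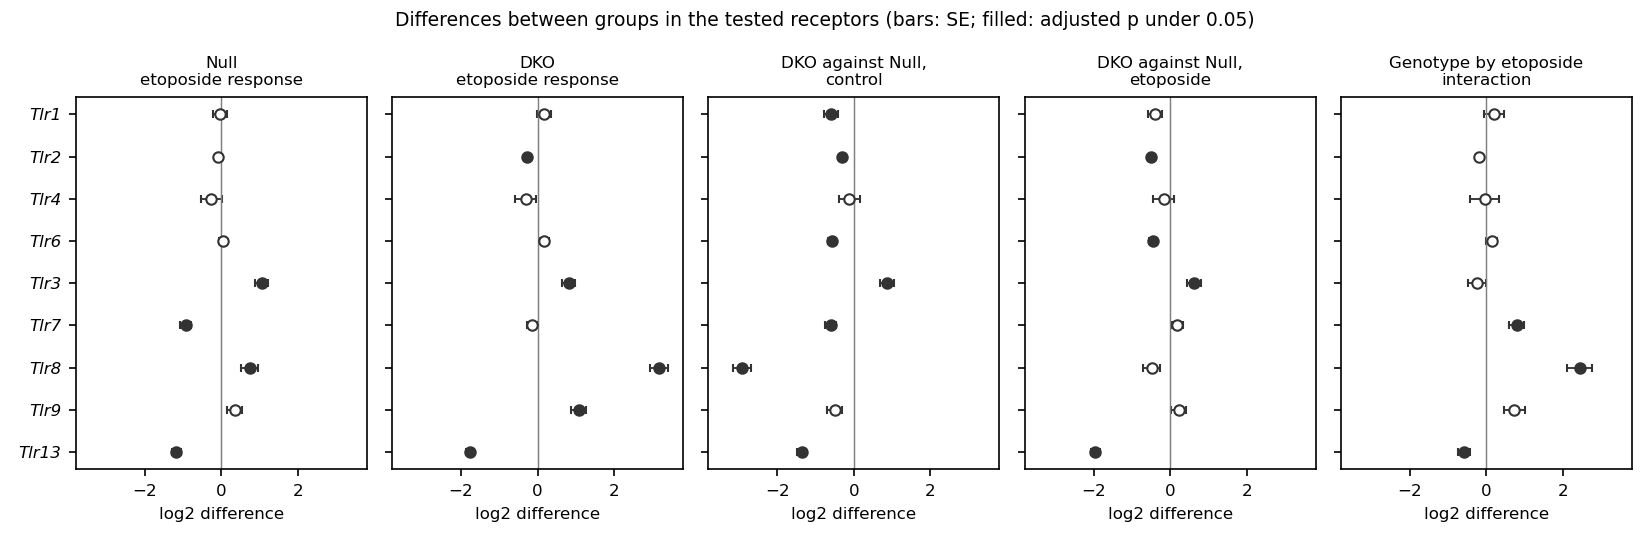
Log2 difference (points) with its standard error (bars) for the 9 tested receptors in 5 contrasts from limma-trend, with filled points where the adjusted p was under 0.05. The surface receptors (upper rows) lie between -0.59 and 0.20 in every contrast, whereas Tlr8 reaches 3.18 in the response of DKO cells and -2.92 between control cells, and Tlr13 is below 0 throughout.

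Of the 9 tested receptors, Tlr8 had the widest differences between groups. Its counts were 34, 67 and 56 in the Null control libraries, 3, 9 and 4 in DKO control, 115, 113 and 107 in treated Null and 72, 82 and 98 in treated DKO. The corresponding levels were 1.10 to 1.35, 0.0563 to 0.162, 1.93 to 2.14 and 1.31 to 1.61 CPM, so the DKO control libraries stood apart at the bottom, the Null etoposide libraries at the top, and the ranges of Null control and DKO etoposide overlapped. Over the summed counts, Tlr8 was 10.8-fold higher in Null control than in DKO control cells (95% interval 6.44 to 19.3, exact binomial, counting error only).

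With etoposide, summed Tlr8 counts rose 12.9-fold in DKO cells (95% interval 7.79 to 22.9) and 1.68-fold in Null cells (1.38 to 2.04), again with counting error only. In the fit, which shrinks low counts towards each other, the log2 difference was 3.18 in DKO cells (SE 0.230, limma-trend adjusted p 3.26e-07) and 0.74 in Null cells (limma-trend adjusted p 0.0219). The difference between control cells was -2.92 (limma-trend adjusted p 1.40e-06), and the interaction was 2.43 (SE 0.325, limma-trend adjusted p 0.000362). After etoposide the genotypes differed by -0.48, which did not pass the test (limma-trend adjusted p 0.130, 0.0235 to 0.305 over the other settings). That difference passed it with the DESeq2 Wald test (-0.49, adjusted p 0.0300) and when only the groups compared were fitted (-0.48, limma-trend adjusted p 0.0235).

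The rise of Tlr8 in Null cells passed the test only narrowly. It was no longer called without Null control 1, Null control 3, Null etoposide 2 or Null etoposide 3 (log2 difference 0.68, 0.72, 0.71 and 0.74, limma-trend adjusted p 0.0575 to 0.0690), nor with a prior count of 0.5 (limma-trend adjusted p 0.0609). The called differences of Tlr8 in the other 3 contrasts held with every library left out in turn.

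Tlr13, the receptor of bacterial ribosomal RNA in mice, was lower in etoposide-treated than in control cells and lower in DKO than in Null cells. Its levels were 34.7, 39.2 and 41.1 CPM in the Null control libraries, 15.7, 14.6 and 14.2 CPM in DKO control, 17.1, 16.0 and 17.9 CPM in treated Null and 3.62, 4.65 and 4.79 CPM in treated DKO. All libraries of each changed group thus lay below all Null control libraries, and the DKO etoposide libraries lay below all others. Null control cells had 8.80 times the mean level of DKO etoposide cells.

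Tlr13 fell by 1.17 on the log2 scale with etoposide in Null cells (SE 0.114, limma-trend adjusted p 5.79e-06) and by 1.76 in DKO cells (limma-trend adjusted p 1.16e-07). The difference between genotypes was -1.36 in control cells (limma-trend adjusted p 2.47e-06) and -1.96 after etoposide (limma-trend adjusted p 5.26e-08). These 4 differences held under every alternative run. The interaction, -0.59 (limma-trend adjusted p 0.0372), did not: it was lost without Null control 1 or 2, without any one of the DKO control or Null etoposide libraries, and without DKO etoposide 1 or 2 (-0.63 to -0.44, limma-trend adjusted p 0.0503 to 0.109). It was also lost with library size alone (-0.55, limma-trend adjusted p 0.0514), with no filter on low counts (-0.60, limma-trend adjusted p 0.0709) and with the replicate number as a block (limma-trend adjusted p 0.0636).

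Tlr7, the single-stranded RNA receptor next to Tlr8 on the X chromosome, fell with etoposide in Null cells, where Tlr8 rose. It was at 212, 202 and 181 CPM in the Null control libraries, 101, 144 and 152 CPM in DKO control, 111, 98.8 and 102 CPM in treated Null and 116, 105 and 132 CPM in treated DKO. The Null control libraries lay above all others, and the other 3 groups overlapped.

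With etoposide Tlr7 fell by 0.93 on the log2 scale in Null cells (SE 0.140, limma-trend adjusted p 0.000198), whereas in DKO cells the difference was -0.15 (limma-trend adjusted p 0.447). Without DKO control 1, the lowest of the DKO libraries, the latter became -0.32 and was called (limma-trend adjusted p 0.0214). Control DKO cells had less of it, with a difference of -0.60 (limma-trend adjusted p 0.00834), a call lost when only the groups compared were fitted (-0.61, limma-trend adjusted p 0.0613). After etoposide the genotypes differed by 0.18 (limma-trend adjusted p 0.354). The interaction was 0.78 (SE 0.198, limma-trend adjusted p 0.0253) and was lost with the replicate number as a block (limma-trend adjusted p 0.0616) and without Null control 1 or 2, Null etoposide 2 or 3 or DKO etoposide 1 or 3 (0.72 to 0.82, limma-trend adjusted p 0.0504 to 0.0720).

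Tlr9, the receptor of CpG DNA, rose with etoposide in DKO cells. Its levels were 9.79, 14.5 and 15.5 CPM in the DKO control libraries and 28.8, 22.8 and 31.9 CPM in DKO etoposide, with no overlap, and the log2 difference was 1.08 (SE 0.192, limma-trend adjusted p 0.000728). In Null cells it was at 23.7, 17.2 and 15.4 CPM in control and 24.6, 22.8 and 23.3 CPM in etoposide libraries, which overlapped. The difference there, 0.36, did not pass the test (limma-trend adjusted p 0.167), although without Null control 1, the highest control library, it was 0.53 and did (limma-trend adjusted p 0.0411). The interaction of 0.72 was not called (limma-trend adjusted p 0.139, 0.0829 to 0.257 over the other settings), so a difference between the genotypes in this response was not shown. Control DKO cells were at -0.50 relative to Null cells, which missed the threshold (limma-trend adjusted p 0.0977) and passed it with library size alone (-0.58, limma-trend adjusted p 0.0471).

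Tlr3, the receptor of double-stranded RNA and the only one of the family to signal through TRIF alone, was the only receptor called higher in DKO cells. Its counts were 48 to 60 in Null control, 66 to 150 in DKO control, 142 to 161 in treated Null and 219 to 297 in treated DKO libraries. Its levels were 1.56, 1.21 and 1.11 CPM in the Null control libraries, 2.50, 2.69 and 2.01 CPM in DKO control, 2.46, 2.69 and 3.11 CPM in treated Null and 4.09, 3.83 and 4.88 CPM in treated DKO. Null control libraries lay below and DKO etoposide libraries above all others, and the 2 remaining groups overlapped.

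Tlr3 rose by 1.06 on the log2 scale with etoposide in Null cells (SE 0.173, limma-trend adjusted p 0.000363) and by 0.82 in DKO cells (limma-trend adjusted p 0.00237). Control DKO cells were higher than control Null cells by 0.87 (limma-trend adjusted p 0.00306). After etoposide the difference was 0.62 (limma-trend adjusted p 0.0148), a call lost without Null etoposide 1 (0.55, limma-trend adjusted p 0.0643) or DKO etoposide 3 (0.53, limma-trend adjusted p 0.0652). The interaction was -0.24 (limma-trend adjusted p 0.673).

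**Figure D3:**
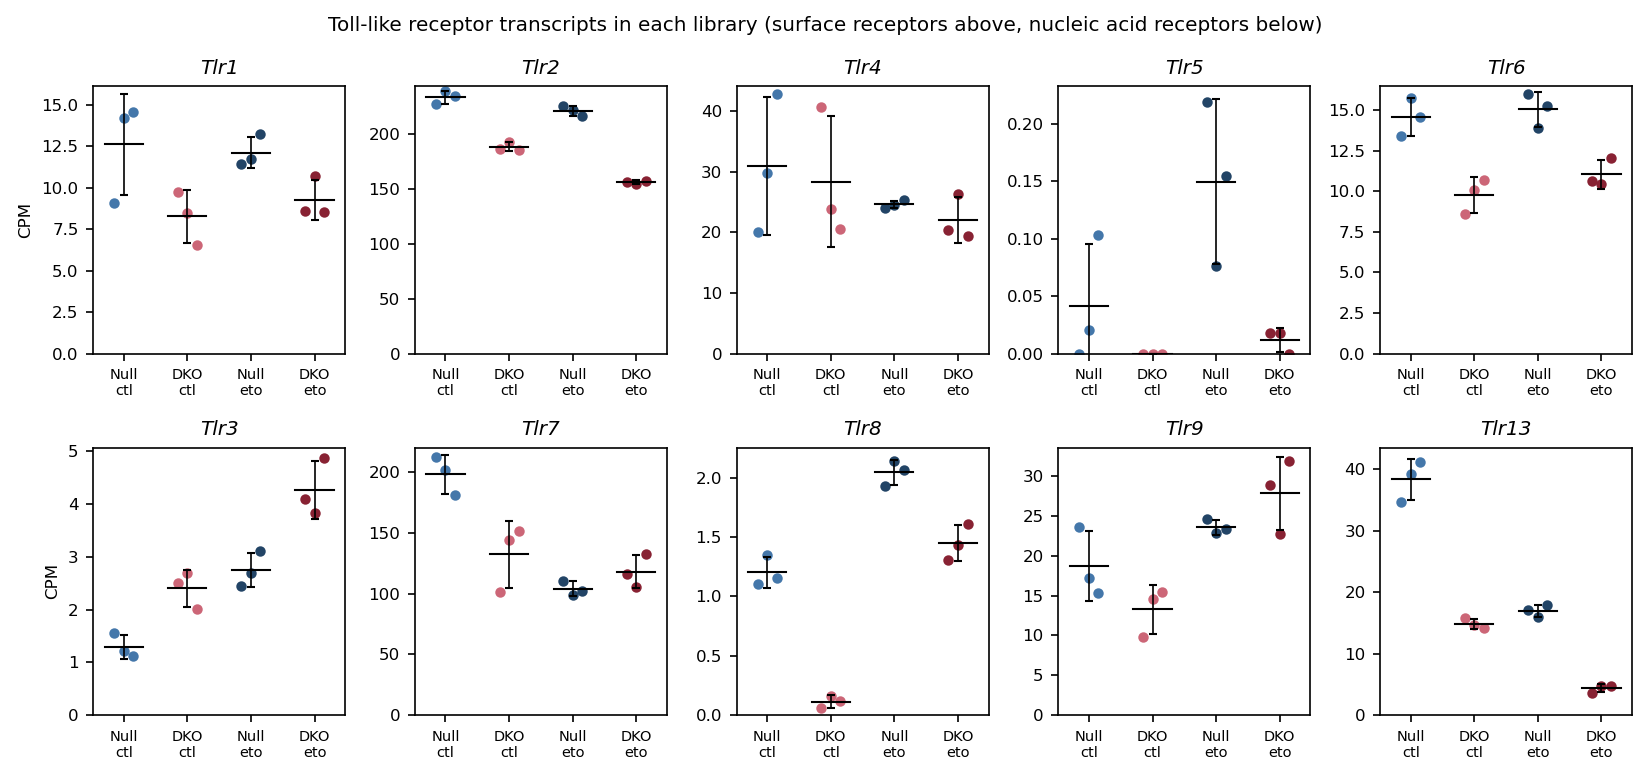
Level of each of the 10 receptors in every library in CPM, on axes that start at 0 and differ between genes, with the mean (black line) and SD (bar) of the 3 libraries of a group. Tlr3 is lowest in Null control and highest in DKO etoposide cells, and Tlr13 is highest in the former and lowest in the latter. Tlr8 is near 0 in DKO control cells only, Tlr2 and Tlr6 are lower in all DKO than in all Null libraries, and Tlr4 varies more between control libraries than between groups.

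Of the surface receptors, Tlr2 and Tlr6 were lower in DKO cells with and without the drug. Tlr2, the shared partner of both lipopeptide receptors, was at 227, 239 and 235 CPM in Null control, 187, 193 and 186 CPM in DKO control, 225, 222 and 217 CPM in treated Null and 157, 155 and 157 CPM in treated DKO libraries. Every DKO library lay below every Null library, and the DKO etoposide libraries lay lowest. The changes were small and precise: -0.31 between control cells (SE 0.0572, limma-trend adjusted p 0.00173), -0.50 after etoposide (limma-trend adjusted p 2.29e-05) and -0.27 with etoposide in DKO cells (limma-trend adjusted p 0.00236). In Null cells the etoposide response of Tlr2 was -0.08 (limma-trend adjusted p 0.309). The interaction, -0.19, was not called (limma-trend adjusted p 0.195), except with the DESeq2 Wald test (-0.18, adjusted p 0.0310).

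Tlr6 was at 13.4, 15.8 and 14.6 CPM in Null control, 8.58, 10.1 and 10.7 CPM in DKO control, 16.0, 13.9 and 15.3 CPM in treated Null and 10.6, 10.4 and 12.1 CPM in treated DKO libraries. Again no DKO library reached a Null library. The log2 difference between genotypes was -0.58 in control cells (SE 0.109, limma-trend adjusted p 0.00206) and -0.44 after etoposide (limma-trend adjusted p 0.00733), and both held with each library left out. Neither genotype changed Tlr6 with etoposide by a margin that passed the test (0.05 and 0.18, limma-trend adjusted p 0.783 and 0.223).

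Tlr1, its neighbour, had a wider spread in both control groups. It was at 9.08, 14.2 and 14.6 CPM in Null control, 9.75, 8.49 and 6.56 CPM in DKO control, 11.4, 11.7 and 13.2 CPM in treated Null and 8.58, 10.7 and 8.53 CPM in treated DKO libraries. Null and DKO libraries overlapped in control cells, where Null control 1 lay below DKO control 1, and did not overlap after etoposide. The difference between control cells was -0.59 (SE 0.189, limma-trend adjusted p 0.0457).

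That call for Tlr1 did not last. It was lost without Null control 2 or 3, DKO control 2 or 3, any one of the Null etoposide libraries, or DKO etoposide 1 or 3 (-0.64 to -0.43, limma-trend adjusted p 0.0509 to 0.179), with no filter on low counts (limma-trend adjusted p 0.0627), with the replicate number as a block (limma-trend adjusted p 0.0761) and when only the groups compared were fitted (-0.60, limma-trend adjusted p 0.152). After etoposide the difference of -0.39 was not called (limma-trend adjusted p 0.136), whereas it was when only those groups were fitted (-0.39, limma-trend adjusted p 0.0104).

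Tlr4, the lipopolysaccharide receptor, differed more within the control groups than between groups. It was at 20.1, 29.8 and 42.9 CPM in Null control, 40.8, 23.8 and 20.6 CPM in DKO control, 24.1, 24.4 and 25.3 CPM in treated Null and 20.4, 26.4 and 19.4 CPM in treated DKO libraries. The other ranges lay within that of Null control cells, except at the low end of DKO etoposide cells. Log2 differences ran from -0.31 to -0.05 over the 5 contrasts (SE 0.270 for the first 4, limma-trend adjusted p 0.400 to 0.968).

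The library with the highest Tlr4 in each of Null control, DKO control and DKO etoposide was the one with the highest score on the axis given above, and in all 3 of these groups the same library held the lowest Tlr7 and the lowest Tlr9. Tlr4, Tlr7 and Tlr9 are themselves among the genes of that axis, and its part in their group differences was not tested. Leaving out Null control 3 or DKO control 3 turned the sign of the uncalled difference of Tlr4 between control cells (from -0.12 to 0.15 and 0.08).

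Tlr5, the flagellin receptor, was barely measured. Its counts were 0, 1 and 5 in Null control, 0, 0 and 0 in DKO control, 13, 4 and 8 in treated Null and 1, 1 and 0 in treated DKO libraries. A count of 0 allows up to 3 counts, or 0.0511 to 0.0859 CPM in the DKO control libraries at their depth. Tlr5 did not pass the filter. The summed counts of 25 in treated Null and 2 in treated DKO libraries, whose ranges did not overlap, gave a ratio of 13.2 (95% interval 3.29 to 115, exact binomial, counting error only), and the 25 against 6 in Null control libraries a ratio of 3.27 (1.31 to 9.76). With no filter on low counts, over all 32688 genes, both differences were called (-1.503 for DKO against Null after etoposide, limma-trend adjusted p 0.0104, and 1.13 for the Null response, limma-trend adjusted p 0.0408), with fitted sizes that depend on the prior count, and the other 3 contrasts were not (limma-trend adjusted p 0.461 to 0.703). Tlr11, a further mouse receptor, had 0 to 4 counts per library, and Tlr12 was not analysed here.

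Genes with the most similar pattern were sought for each receptor called at least 1 time, as the highest Pearson r of log2 CPM over the 12 libraries among 10526 genes with a mean of at least 5 CPM. The points share the 4 groups, so a high r can come from group means, from differences between libraries of a group, or from both. These parts were not separated. Closest to Tlr13 was Rnase4 (r = 0.994), at a mean of 39.0, 11.3, 13.6 and 2.67 CPM in Null control, DKO control, Null etoposide and DKO etoposide cells, followed by Ppfia4 (r = 0.989) and Ogfrl1 (r = 0.988). Closest to Tlr8 was Arhgef3 (r = 0.987), followed by Acod1 (r = 0.972), which encodes the enzyme that makes itaconate and had means of 50.4 CPM without and 144 CPM with the drug in Null cells, against 9.57 and 91.6 CPM in DKO cells, and Basp1 (r = 0.970). Tlr2 was most like Sema4d (r = 0.990), Mcm5 (r = 0.983) and Rnf213 (r = 0.978). Tlr3 was most like Csrnp1 and Ip6k2 (r = 0.977 each) and Rnf183 (r = 0.975), Tlr9 most like Synrg (r = 0.985), Zyx (r = 0.974) and Cfap97 (r = 0.965), and Tlr7 most like Zfhx4 (r = 0.972), Arhgap26 (r = 0.966) and Spata13 (r = 0.958). For Tlr6 they were A630001G21Rik (r = 0.971), Rbx1 (r = 0.956) and Rtp4 (r = 0.948), and for Tlr1 Gm37296 (r = 0.956), Eftud2 (r = 0.938) and Ahsa1 (r = 0.935).

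Toll-like receptors work with co-receptors, with chaperones that carry them to the membrane, and with adaptors, kinases, interferon regulatory factors and inhibitors, and 71 such genes were listed, of which 66 were tested. With etoposide 22 of the 66 (33.3%) rose and 12 (18.2%) fell in Null cells, where 20.9% of all genes rose and 18.7% fell, and 30 (45.5%) rose and 11 (16.7%) fell in DKO cells, where 20.2% and 19.1% of all genes did. In control cells 9 (13.6%) were higher and 9 (13.6%) lower in DKO than in Null cells, beside 10.9% and 8.39% of all genes, and after etoposide 17 (25.8%) and 14 (21.2%), beside 15.9% and 17.8%. The 17 include Ikbkg, up to 95.3% of whose counts could come from G6pdx on the opposite strand, and the 14 include Ticam2, for which a like limit is given with the adaptors. The interaction was called for 6 (9.09%) in the positive and 4 (6.06%) in the negative direction, beside 3.07% and 6.39%. The median log2 difference of the 66 genes was 0.12 and 0.23 for the etoposide responses of Null and DKO cells, 0.04 and 0.07 for DKO against Null in control and treated cells and 0.03 for the interaction, beside the medians of all genes given above. A further list of 15 genes induced by the receptors is described last.

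Of 7 tested co-receptors and accessory genes, 2 (28.6%) rose and 4 (57.1%) fell with etoposide in Null cells (all genes, 20.9% and 18.7%), and 2 (28.6%) rose and 3 (42.9%) fell in DKO cells (all genes, 20.2% and 19.1%). Cd14, which hands lipopolysaccharide to TLR4, was at 235 to 410 CPM in Null control, 207 to 374 CPM in DKO control, 499 to 538 CPM in the treated Null and 1084 to 1494 CPM in the treated DKO libraries. Its log2 difference with etoposide was 2.07 in DKO cells (limma-trend adjusted p 1.55e-05) and 0.78 in Null cells (limma-trend adjusted p 0.0174), and after etoposide DKO cells were higher by 1.30 (limma-trend adjusted p 0.000806). The interaction of 1.29 (limma-trend adjusted p 0.0253) was lost in 8 of 21 other settings, the replicate block (limma-trend adjusted p 0.0695) and removal of Null control 2, of any one Null etoposide library or of DKO etoposide 1 or 3 (limma-trend adjusted p 0.0513 to 0.0664) among them. The rise in Null cells was lost without Null control 2 or 3 or Null etoposide 1 or 2 (0.60 to 0.77, limma-trend adjusted p 0.0526 to 0.0705).

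Ly96, which encodes MD-2, was at 5.13 to 14.7 CPM and was called in none of the 5 contrasts. Cd180, a lipopolysaccharide receptor homologue of B cells and macrophages, fell by 1.13 with etoposide in Null cells (limma-trend adjusted p 8.98e-05) and by 1.19 in DKO cells (limma-trend adjusted p 5.28e-05). Cd36, a scavenger receptor that assists TLR2 and TLR6, was at 10.3 to 10.7 CPM in Null control and 132 to 188 CPM in DKO control libraries, and DKO cells were higher by 3.89 in control cells (limma-trend adjusted p 5.95e-10) and by 5.02 after etoposide (limma-trend adjusted p 4.85e-11).

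Of 11 chaperone and trafficking genes, 1 (9.09%) rose and 2 (18.2%) fell with etoposide in Null cells, against 20.9% and 18.7% of all genes, so that the share that fell was near the background. In DKO cells 4 (36.4%) rose and 1 (9.09%) fell, against 20.2% and 19.1%, and between control cells Slc15a4 was lower in DKO cells, 1 of 11 (9.09%) against 8.39% of all genes. That call of Slc15a4 between control cells was lost in 2 of 22 other settings. Unc93b1, which escorts the nucleic acid receptors to endosomes, was at 172 to 191 CPM in Null control, 147 to 188 CPM in DKO control, 183 to 203 CPM in the treated Null and 200 to 229 CPM in the treated DKO libraries. It rose by 0.41 with etoposide in DKO cells (limma-trend adjusted p 0.00441), which was lost after correction for GC content and length (0.27, limma-trend adjusted p 0.0590), and was called in no other contrast. The chaperones Hsp90b1 (gp96) and Cnpy3 were called in none. Slc15a3 and Slc15a4, endolysosomal transporters that take part in nucleic acid receptor signalling, moved in opposite directions with etoposide: Slc15a3 rose by 1.28 in Null and 1.35 in DKO cells (limma-trend adjusted p 0.00229 and 0.00155) and Slc15a4 fell by 0.67 and 0.83 (limma-trend adjusted p 2.40e-05 and 3.57e-06). Up to 9.06% of the counts of Slc15a3 could come from Tmem132a on the opposite strand.

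Of 7 adaptors, 3 (42.9%) rose and 0 fell with etoposide in Null cells, against 20.9% and 18.7% of all genes. In DKO cells 5 (71.4%) rose and 1 (14.3%) fell, against 20.2% and 19.1%. Myd88, the adaptor of all members but TLR3, was at 38.9 to 47.5 CPM in Null control, 73.3 to 86.9 CPM in DKO control, 55.9 to 59.7 CPM in the treated Null and 105 to 114 CPM in the treated DKO libraries, 4 ranges without overlap. Its log2 difference between genotypes was 0.86 in control cells (limma-trend adjusted p 1.50e-05) and 0.93 after etoposide (limma-trend adjusted p 4.63e-06), opposite in direction to those of Tlr2 and Tlr6 in the same libraries.

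Up to 6.16% of its counts could come from Acaa1a, and up to 6.43% of those of Tirap from Srpr, each on the opposite strand. Tirap, which links MyD88 to TLR2 and TLR4, was at 17.9 to 20.0 CPM in Null control and 37.1 to 41.0 CPM in DKO control libraries, a difference of 1.01 (limma-trend adjusted p 6.85e-07). With etoposide it rose by 0.93 in Null cells (limma-trend adjusted p 8.75e-07) and by 0.32 in DKO cells (limma-trend adjusted p 0.00440), with an interaction of -0.62 (limma-trend adjusted p 0.00207). Ticam1, which encodes TRIF, the adaptor of TLR3, rose by 0.83 in DKO cells (limma-trend adjusted p 0.0218), a call lost without DKO control 1, DKO etoposide 1 or DKO etoposide 3 (0.54 to 0.79, limma-trend adjusted p 0.0700 to 0.0744). Up to 98.8% of the counts of Ticam2, the TRIF-related adaptor of TLR4, could come from Tmed7 on the same strand, so it is given no direction here, although it is among the genes counted as falling in DKO cells with etoposide and as lower there than in treated Null cells. Scimp, an adaptor that binds Toll-like receptors, was at 4.31 to 5.13 CPM in Null control, 0.153 to 0.657 CPM in DKO control, 6.89 to 7.39 CPM in the treated Null and 3.49 to 4.46 CPM in the treated DKO libraries. Its log2 differences were -3.31 between control cells (limma-trend adjusted p 2.30e-05) and 3.06 with etoposide in DKO cells (limma-trend adjusted p 2.39e-05), next to -2.92 and 3.18 for Tlr8, and its interaction was 2.43 (limma-trend adjusted p 0.00864).

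**Figure D4:**
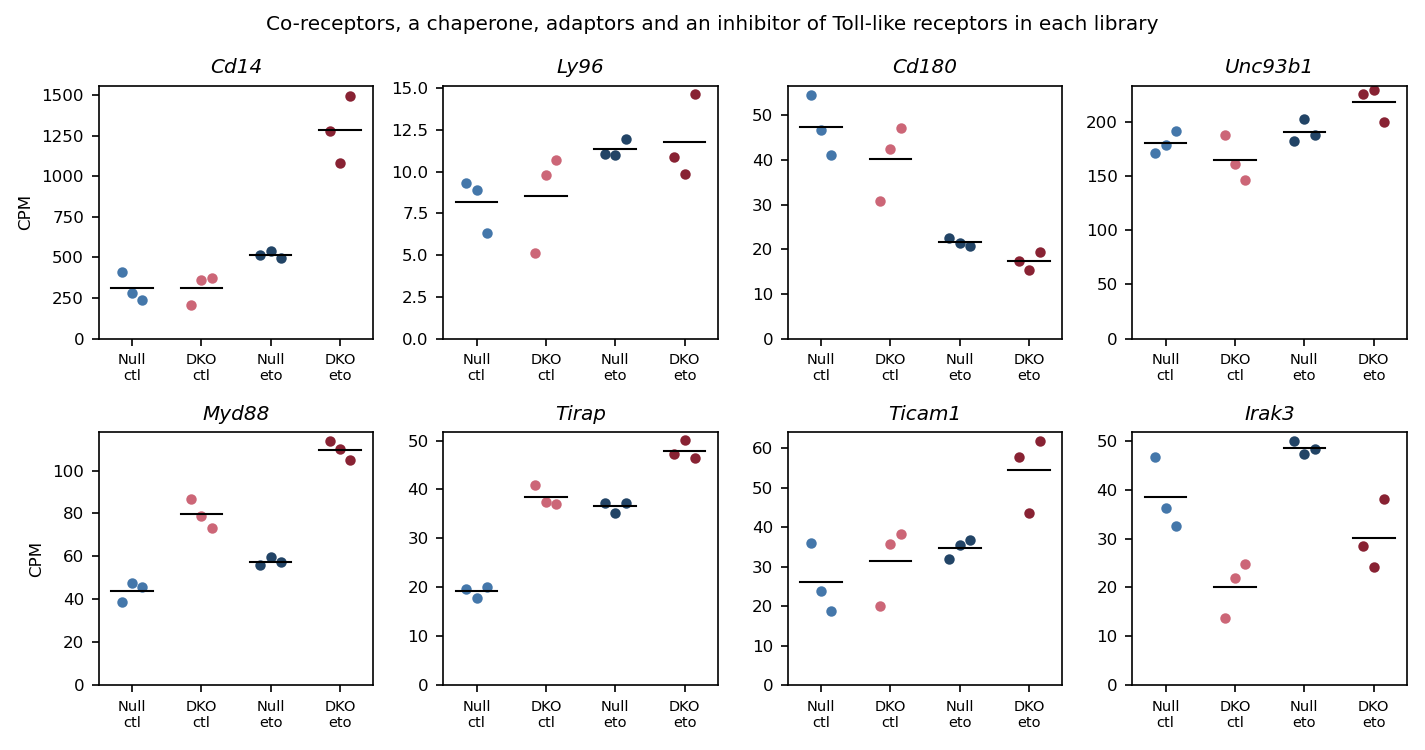
Level in CPM of 8 genes that work with Toll-like receptors in every library, on axes that start at 0 and differ between genes, with a black line at each group mean of 3 libraries. Cd14 is highest in DKO etoposide cells, Cd180 is lower in all etoposide libraries than in all control libraries, and Myd88 is higher in DKO than in Null libraries, whereas Ly96 overlaps between genotypes.

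Of 20 kinases and ubiquitin enzymes, 7 (35%) rose and 2 (10%) fell with etoposide in Null cells and 8 (40%) rose and 1 (5%) fell in DKO cells, where 20.9%, 18.7%, 20.2% and 19.1% of all genes did. Ikbke, an IKK-related kinase upstream of interferon factors, rose by 1.55 in Null cells (limma-trend adjusted p 8.13e-08) and 1.58 in DKO cells (limma-trend adjusted p 3.76e-08) and was lower in DKO cells, with differences of -0.49 in control and -0.46 in treated cells (limma-trend adjusted p 0.00174 and 0.00186). Map3k8, a kinase of the ERK branch, was lower in DKO cells without and with the drug, with differences of -0.64 and -0.69 (limma-trend adjusted p 0.000555 and 0.000198). Irak4, the kinase that binds MyD88, rose by 0.38 in DKO cells (limma-trend adjusted p 0.00294), although up to 21.9% of its counts could come from Twf1 on the opposite strand. Peli3 had 1 count over the 3 Null control libraries and 69 over the Null etoposide libraries. Irak2 had an interaction of 0.40 (limma-trend adjusted p 0.0228), which was lost in 7 of 21 other settings. Among them was removal of Null control 2, DKO control 3, Null etoposide 2 or 3 or DKO etoposide 1 (0.36 to 0.41, limma-trend adjusted p 0.0517 to 0.0756).

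Among 5 interferon regulatory factors, Irf7 rose with etoposide by 0.95 in Null and 1.15 in DKO cells (limma-trend adjusted p 0.000272 and 5.29e-05) and was lower in DKO cells without and with the drug, with differences of -1.38 and -1.18 (limma-trend adjusted p 2.07e-05 and 5.24e-05). Irf8, a macrophage lineage factor, fell by 0.87 in Null and 1.52 in DKO cells with etoposide (limma-trend adjusted p 1.91e-06 and 8.04e-09), with an interaction of -0.65 (limma-trend adjusted p 0.00158). Its mean levels of 68.2, 51.1, 37.3 and 17.8 CPM in Null control, DKO control, Null etoposide and DKO etoposide cells were lower in each changed group, as were those of Tlr13.

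Of 16 negative regulators, 8 (50%) rose and 3 (18.8%) fell with etoposide in Null cells, the latter share near the 18.7% of all genes that fell and the former above the 20.9% that rose. In DKO cells 9 (56.2%) rose and 4 (25%) fell, against 20.2% and 19.1%. Irak3, which blocks the release of IRAK kinases from MyD88, was lower in control DKO cells, with a difference of -0.96 (limma-trend adjusted p 0.00658). Tnfaip3, which encodes the deubiquitinase A20, rose by 0.43 with etoposide in Null cells (limma-trend adjusted p 0.00545) and fell by 0.78 in DKO cells (limma-trend adjusted p 6.89e-05), and the interaction was -1.21 (limma-trend adjusted p 0.000159). Atf3, a repressor induced by Toll-like receptors, was lower in DKO cells, with differences of -1.79 in control and -2.48 in treated cells (limma-trend adjusted p 0.000293 and 1.25e-05), and fell by 1.12 and 1.81 with etoposide in Null and DKO cells (limma-trend adjusted p 0.00460 and 0.000145). Socs1 rose by 3.22 in Null cells (limma-trend adjusted p 6.23e-05), from 26 to 354 summed counts, and by 1.20 in DKO cells (limma-trend adjusted p 0.0377), a call lost in 11 of 22 other settings, with 7 of the single libraries left out among them: DKO control 1 or 3, any one of Null etoposide, and DKO etoposide 1 or 2 (0.93 to 1.20, limma-trend adjusted p 0.0533 to 0.143).

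Of 12 tested genes known to be induced when Toll-like receptors signal, 9 (75%) rose with etoposide in Null cells, where 20.9% of all genes rose, and Ccl5, Cxcl10 and Nfkbia were not called (-0.06, 0.57 and 0.32, limma-trend adjusted p 0.933, 0.121 and 0.104). In DKO cells 11 (91.7%) rose, against 20.2%, and Cxcl10 fell by 2.22 (limma-trend adjusted p 3.69e-05). Il1b rose from 57 to 2943 summed counts in Null cells (log2 difference 5.52, limma-trend adjusted p 3.31e-07) and from 31 to 8162 in DKO cells (7.46, limma-trend adjusted p 1.37e-08). Nos2 was at 10.8 to 13.3 CPM in Null control and 0.282 to 0.467 CPM in DKO control libraries, a difference of -4.90 (limma-trend adjusted p 4.61e-09), and of -4.54 after etoposide (limma-trend adjusted p 4.34e-09). No ligand was given in the labelled treatments, and these genes are also induced in other ways.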

How the data were processed

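Per the labels and the methods of the study, the authors sequenced stranded total RNA depleted of ribosomal RNA, aligned it with HISAT2 and kept uniquely mapped pairs. The submitters' processing notes name featureCounts and the build mm10, whereas the methods name HTSeq. The strand setting was not given in the sources used here, and neither was which of 2 RNA kits served which library. The deposited table holds raw counts of 12 libraries, grouped by title, with nothing normalized. Symbols and coordinates are from GENCODE M21 (GRCm38), matched by identifier without version (99.4% found).

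Low genes were removed by edgeR 4.0.16's filterByExpr (18066 kept, 99.96% of counts), and the rest were scaled by TMM and tested as log2 CPM with a prior count of 3 by robust limma-trend (limma 3.58.1, R 4.3.3), with a mean per group, 5 contrasts, two-sided p-values and Benjamini-Hochberg adjustment. DESeq2 1.42.0 and edgeR's quasi-likelihood test served as alternatives, and the script was tested on simulated data. Fold changes of low genes are understated by the prior count. Depth was 29837255 to 61809316 counts. For well-counted genes, the median squared difference between replicates was 3.40 to 53.6 times what counting alone would give. Genes with few counts were left out of that comparison. RPKM used the union of exons.

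The receptors and pathway lists were chosen with earlier results of these data known. Named are all members, Tfeb and Tfe3, Tlr11 and Tlr12, fixed pathway genes (Cd14, Ly96, Cd180, Unc93b1, Hsp90b1, Cnpy3, Myd88, Tirap, Ticam1, Ticam2, Irak3 and Irak4), the called gene with the largest difference per sublist and contrast, and the 3 closest genes per called receptor. Same-numbered replicates were not paired: over 18 such pairs of libraries from different groups, deviations from the group means correlated at -0.54 to 0.39, above 0.1 in 1.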

Additional observations from a re-analysis of the deposited data

Results flagged for a closer look

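The difference between the etoposide responses (DKO minus Null) passed the interaction test (limma-trend, Benjamini-Hochberg adjustment) for 3 receptors. It was 0.78 on the log2 scale for Tlr7, where Null cells fell and the change in DKO cells was not called, 2.43 for Tlr8, where both rose, and -0.59 for Tlr13, where both fell. Of these, that of Tlr8 held in every alternative run, and the other 2 were lost in several, as given with those genes.

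Of the 66 tested genes that work with the receptors, the same test was passed, in the positive direction, by Scimp (2.43), Cd14 (1.29), Cd36 (1.13), Il1rl1 (0.84), Itgb2 (0.46) and Irak2 (0.40) and, in the negative direction, by Tnfaip3 (-1.21), Tnip3 (-0.73), Irf8 (-0.65) and Tirap (-0.62). Of the 12 tested genes that the receptors induce, it was passed by Ccl5 (3.10), Il10 (2.15), Il1b (1.93), Acod1 (1.74), Nfkbiz (1.17) and Ccl3 (0.68) and, in the negative direction, by Cxcl10 (-2.78), Ptgs2 (-0.92) and Cxcl2 (-0.77). Ccl5 had 3 counts over the DKO control libraries, so that its fitted value depends on the prior count. The interaction of Il1b was lost in 12 of 21 other settings (limma-trend adjusted p up to 0.106), in 9 of them because a single library was left out.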

How the results depend on the processing

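Of the 23 calls of single receptors, none changed direction in any alternative, 17 were kept in every one that set no minimum size, and 6 were lost in at least 1. With a minimum absolute log2 difference of 1, the receptors called were 2 and 3 for the etoposide responses of Null and DKO cells, 2 and 1 for DKO against Null in control and treated cells and 1 for the interaction, and the pathway and induced genes called were 17, 24, 11, 15 and 10. With the replicate number as a block, which the data do not bear out as a pairing, the interaction was called for 1 receptor, Tlr8, and the other counts of receptors stayed within 1.5 times. With single libraries left out, the interaction was called for 1 to 3 receptors. The sign turned only for values that were not called: after a correction for GC content and length, chosen after the data were seen, for Tlr1 in the Null response (0.0156) and Tlr4 in the interaction (0.0373), and with a library left out for Tlr1 (-0.25 to 0.0906) and Tlr6 (-0.015 to 0.10) in the Null response and for Tlr4 between control cells (-0.43 to 0.15), in the interaction (-0.32 to 0.26) and in the Null response (-0.54 to 0.0076). Among pathway genes, Tnip3 lost its call and turned in the DKO response with that correction (0.0062), and the cause was not tested. Of 88 calls of named pathway genes, Tfeb and Tfe3, 73 were kept in all settings without a minimum size. Depth limits Tlr5, Tlr8 and Tlr3, whose counts were at or below 297 per library.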
